A study of Homo sapiens with 2 samples.

Results

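The proteasome genes of lung fibroblasts were examined with and without silencing of periostin. Members were all genes whose symbol is PSM followed by a letter from A to G and a number, with pseudogenes left out, named through the RefSeq accession that the array gives for each spot. The rule uses no measured value. It found 48 genes among the 21740 genes named on the array, and 46 of the 48 had a signal well above background, as against 16046 of all genes. The 2 others were PSMA8, a testis-specific 20S subunit, and PSMB11, the thymus-specific catalytic subunit, neither of which was well above background on either array.

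MRC-5 cells are a widely used fibroblast line derived from human fetal lung. The cells received a control siRNA or a siRNA against periostin, a matricellular protein that fibroblasts secrete, and the labels give 10 nM for 48 h for the periostin siRNA. Total RNA of each condition was labelled with Cy3 and hybridized to 1 single-colour Agilent expression array on 1 shared slide. The purpose stated for the series was to find the genes whose expression depends on periostin in these cells. Since each condition had 1 array, there is no replicate, no test between the conditions was made and no p-value is given, and the effect of the siRNA and a difference between cultures cannot be told apart. The control siRNA is the only comparison, so an effect of the periostin siRNA other than on periostin cannot be told apart from that on periostin either.

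The proteasome degrades proteins that carry ubiquitin chains. Its 20S core is a barrel of outer rings of alpha subunits (PSMA genes) and inner rings of beta subunits (PSMB genes), of which PSMB5, PSMB6 and PSMB7 carry the catalytic sites. The 19S cap (PSMC and PSMD genes) binds, unfolds and feeds in the substrate. When cells respond to interferon, the beta subunits PSMB8, PSMB9 and PSMB10 can replace PSMB5, PSMB6 and PSMB7 to form the immunoproteasome, and the activator PA28, made of PSME1 and PSME2, can bind the core, and both are known for their part in making peptides for MHC class I.

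The signal of each spot, background-subtracted by the scanner software, was scaled so that both arrays had the same 75th percentile, and values are in these scaled intensity units or as the log2 ratio, which is positive where the signal was higher with periostin siRNA. The spot error is the SD of the log2 ratio over the spots of a probe where it was measured on 8 or 10 spots, as for PSMD6 and PSMD7, and otherwise the error that the scanner software propagates for a single spot, which was 0.20 on the log2 scale for the 44 members with 1 spot. The propagated error is the wider of the estimates at hand: over the 282 probes printed 10 times within the members' range of signal, the pooled SD of the log2 ratio between spots of 1 array pair was 0.06. Neither covers a difference between cultures. The signals of different probes are not compared, only their log2 ratios.

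POSTN, the target, had a scaled signal of 2638 in the control and 280 after silencing (log2 ratio -3.24). All 8 fibroblast markers were measured, among them VIM at 189263 and 174022 in control and periostin siRNA, and their log2 ratios ran from -0.54 for COL1A1 to 0.83 for LUM, with 5 below 0. Of the markers of other cells, 5 of 8 leukocyte, 3 of 4 epithelial and 2 of 3 endothelial genes were well above background on at least 1 array, with log2 ratios from -0.43 for CORO1A to 0.94 for CD14, from 0.48 for KRT18 to 1.97 for EPCAM, and from -0.09 for CDH5 to 0.15 for VWF. CDH1, PECAM1, HLA-DRA, LAPTM5 and MS4A1 were not well above background on either array. Whether cells of another type had a part in the values of the proteasome genes was not tested. Over the 16046 genes measured, the median log2 ratio was 0.06 with an SD of 0.81.

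The proteasome genes as a whole were modestly lower with periostin siRNA. Their median log2 ratio was -0.20, that is 13.2% less signal, and they ranged from -0.75 for PSMA2 to 0.29 for PSMD5. The log2 ratio was below 0 for 35 of the 46 measured members, whereas it was below 0 for 45.5% of all genes measured. It was below the median of all genes for 37 of them. In RNA of a whole culture, fewer cells that express a gene and less RNA of it per cell cannot be told apart.

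The shift was narrow as well as small. No member was lower by more than 2-fold, which 6.39% of all genes were, or higher by more than 2-fold, which 7.96% of all genes were. Likewise no member passed 3-fold, the limit that 2.72% of all genes passed downward and 3.36% upward. At a lower limit, 2 members, PSMA2 and PSMA3, were lower by more than 1.5-fold, against 13.7% of all genes, and none was higher by that much, against 17.6% of all genes. The members were bright, with control signals from 761 for PSMD5 to 46782 for PSMB1. The 5617 genes within the same range of signal had a median log2 ratio of 0.04 and an SD of 0.57, and the members had an SD of 0.24. Of these 5617 genes, 586 were lower and 645 higher by more than 1.5-fold, 215 (3.83%) and 204 (3.63%) by more than 2-fold, and 62 and 46 by more than 3-fold. Set against the spot error, 23 members were below 0 by more than their error, 2 (PSMF1 and PSMD5) were above 0 by more than it, and 21 lay within it. Set against the narrower SD between spots (0.06), 33 members were below 0 by more than it, 9 were above 0, and 4 (PSMA6, PSMC4, PSMD1 and PSMG3) lay within it. The share of other genes past these error limits was not counted. With an SD of 0.57 among genes of the same signal range, the counts do not by themselves set the members apart.

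**Figure D1:**
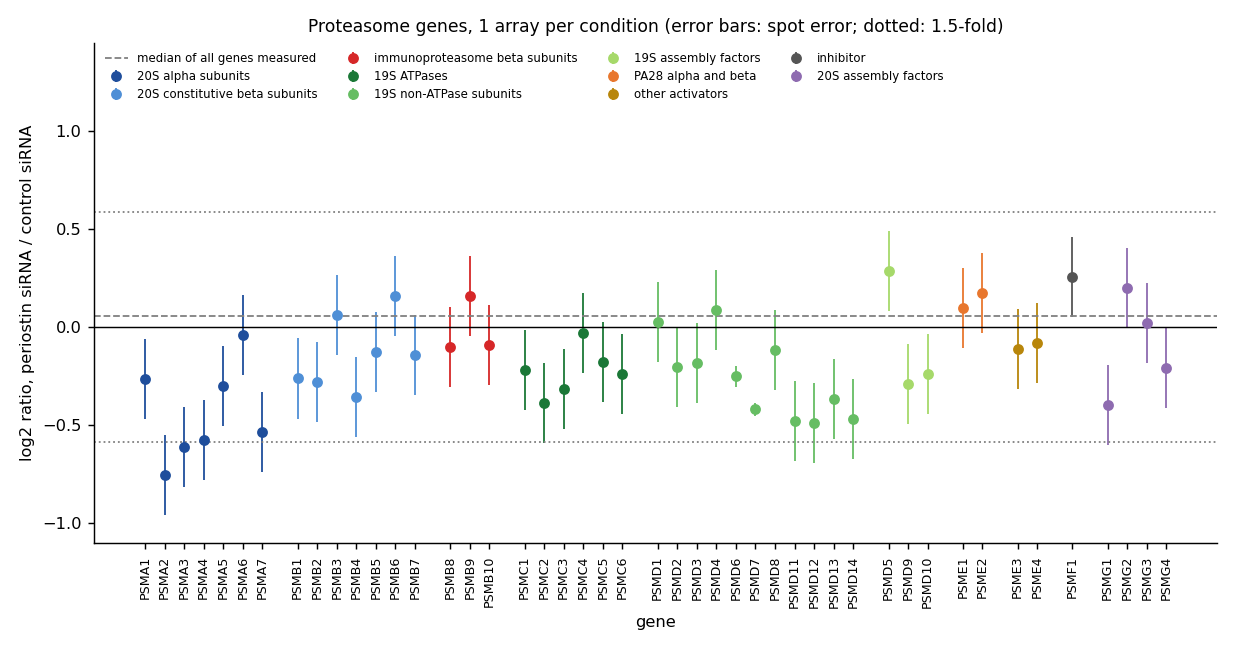
Log2 ratio, periostin siRNA over control (y axis), for each of the 46 measured proteasome genes (x axis), coloured by role. Bars are the spot error, the dashed line is the median of all genes measured (0.06) and the dotted lines mark 1.5-fold. All 7 alpha subunits lie below 0, although PSMA1 and PSMA6 lay above it in other settings, only PSMA2 and PSMA3 pass the lower dotted line, and the 5 interferon-inducible members (PSMB8, PSMB9, PSMB10, PSME1 and PSME2) lie between -0.10 and 0.18.

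The alpha subunits form the outer rings and the gate of the core, and they had the lowest log2 ratios of any role group, with a median of -0.53 and 7 of 7 genes below 0, although PSMA1 (0.21 with the mean over its probes) and PSMA6 (up to 0.0063) were above 0 in other settings. PSMA2 had a scaled signal of 11097 with control siRNA and 6576 with periostin siRNA (log2 ratio -0.75 ± 0.20, spot error), which is 1.69-fold lower. PSMA3 went from 10396 to 6811 (-0.61 ± 0.20), 1.53-fold lower. These were the only members past 1.5-fold, and PSMA4 lay just inside that limit with 5665 and 3798 (-0.58 ± 0.20). PSMA7 went from 11412 to 7893 (-0.53 ± 0.20). The remaining alpha subunits were closer to the control level, with log2 ratios of -0.30 for PSMA5, -0.26 for PSMA1 and -0.04 for PSMA6, whose signals were 22648 and 22068. Among the RNAs for the ring, those of PSMA2, PSMA3, PSMA4 and PSMA7 were thus from 30.8% to 40.7% lower. That of PSMA6 was 2.56% lower and within its spot error. The amounts of the proteins were not measured on these arrays.

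The constitutive beta subunits were nearer to 0 than the alpha subunits, with a median log2 ratio of -0.14 and 5 of 7 genes below 0. Among the catalytic subunits, PSMB5, which carries the chymotrypsin-like site, had signals of 23695 and 21684 (log2 ratio -0.13 ± 0.20). PSMB6, which carries the caspase-like site, had 22750 and 25382 (0.16 ± 0.20). PSMB7, which carries the trypsin-like site, had 20852 and 18926 (-0.14 ± 0.20). All 3 catalytic subunits lay within their propagated spot error of 0, but beyond the SD between spots of 0.06. The non-catalytic subunits had a median of -0.27, with PSMB4 at -0.36, PSMB2 at -0.28, PSMB1 at -0.26 and PSMB3 at 0.06. The second probes of PSMB1 and PSMB2 gave -0.37 and -0.22, on the same side of 0 as the first.

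The interferon-inducible members were close to their control level. PSMB8, the inducible counterpart of PSMB5, had signals of 1572 with control siRNA and 1467 with periostin siRNA (log2 ratio -0.10 ± 0.20). PSMB9, the counterpart of PSMB6, had 1862 and 2079 (0.16 ± 0.20). PSMB10, the counterpart of PSMB7, had 16777 and 15733 (-0.09 ± 0.20). Thus all 3 immunoproteasome beta subunits were expressed well above background in both conditions, and their log2 ratios were within the propagated spot error but beyond the SD between spots of 0.06. For the PA28 activator, PSME1 had 929 and 994 (0.10 ± 0.20) and PSME2 had 36710 and 41474 (0.18 ± 0.20), which likewise lay within the former and beyond the latter. The median of these 5 genes was 0.10, and that of the 31 constitutive 20S and 19S subunits was -0.26, with 27 of the 31 below 0.

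Each inducible subunit was then set beside its constitutive counterpart, as the difference of their log2 ratios. PSMB8 minus PSMB5 was 0.03, PSMB9 minus PSMB6 was 0.0008 and PSMB10 minus PSMB7 was 0.05, each with a combined spot error of 0.29. PSME1 minus PSME3, the nuclear member of the same activator family, was 0.21, and PSME2 minus PSME3 was 0.29, which is just under the combined spot error (0.286 against 0.289). The differences were within the combined propagated error, except that PSME2 minus PSME3 exceeded it with quantile normalization (0.35) and with normexp (0.290). Against the SD between spots, which is 0.08 for a difference, the 3 beta pairs lay within it and both PSME differences beyond it. The catalytic subunits that the inducible ones replace had a median log2 ratio of -0.13, whereas the alpha subunits had -0.53, the non-catalytic beta subunits -0.27 and the 19S subunits -0.24.

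**Figure D2:**
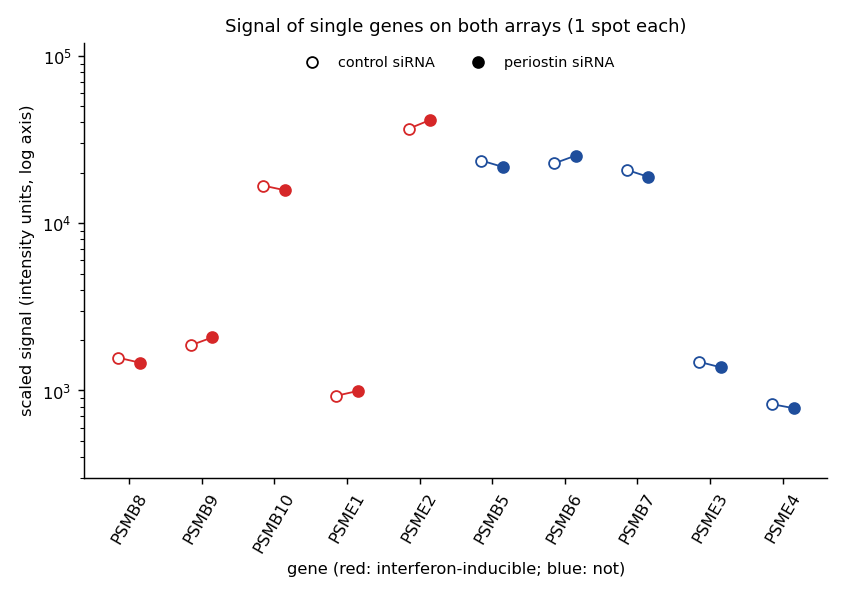
Scaled signal (y axis, log scale, intensity units) of 10 proteasome genes (x axis) with control siRNA (open circles) and periostin siRNA (filled circles), 1 spot on 1 array each. The interferon-inducible genes (red) and the constitutive catalytic subunits, PSME3 and PSME4 (blue) each show a nearly level line, with log2 ratios from -0.14 to 0.18; heights of different genes are not comparable.

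The near-level signal of the inducible members was recorded on arrays on which other interferon-responsive genes were higher. A list of 30 interferon-stimulated genes was chosen after its values were seen, so its counts and median are a description and no test. Of these 30 genes, 29 were measured and 27 had a log2 ratio above 0, as did 8742 of all 16046 genes. More than 2-fold higher were 21, against 7.96% of all genes, and the median of the list was 1.48. The largest value was that of IFI44L, at 17.0 and 318 (log2 ratio 4.23), and MX1, which encodes an antiviral GTPase, went from 409 to 3425 (3.07). The genes of the list below 0 were IFIT5 at -0.20 and USP18 at -0.28, and the others lay at 0.34 (STAT2) or above, so that the 5 inducible proteasome genes lay between both sets. IRF1, an interferon-responsive transcription factor, had 348 and 315 (-0.14 ± 0.20). The labels name no interferon treatment.

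**Figure D3:**
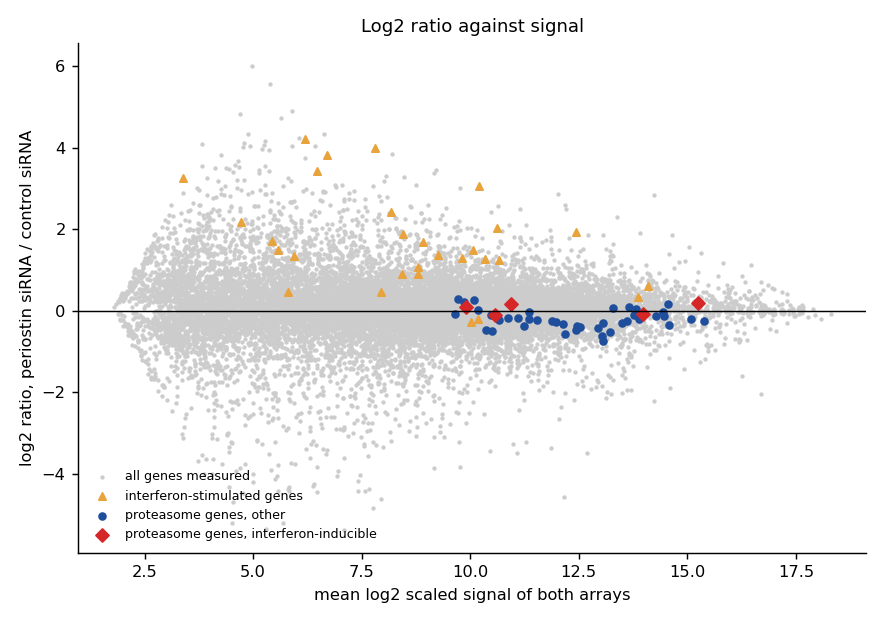
Log2 ratio, periostin siRNA over control (y axis), against the mean log2 scaled signal of both arrays (x axis) for all 16046 genes measured (grey), the 41 other proteasome genes (blue circles), the 5 interferon-inducible proteasome genes (red diamonds) and 29 interferon-stimulated genes (orange triangles). The proteasome genes lie at the bright end and within -0.75 and 0.29, below nearly all of the orange triangles, a list chosen after its values were seen.

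The genes that act on peptides after the proteasome were less uniform. TAP1, the peptide transporter subunit that shares its promoter region with PSMB9, had 7508 and 9734 (log2 ratio 0.37 ± 0.20). TAPBP, the tapasin that loads peptides on MHC class I, had 6441 and 11115 (0.79 ± 0.20), and its other probes gave 0.87 and 0.91. B2M, the light chain of MHC class I, had 54161 and 73592 (0.44 ± 0.05, SD over 10 spots). These 3 genes were higher by more than their spot error, and the share of all genes past that error was not counted. They belong to a list of 9 antigen processing partners, of which 6 lay above 0 and 3 below, with a median of 0.44. TAP2, the other transporter subunit, depended on the probe: the bright probe, which is assigned to a transcript variant, had 1816 and 574 (-1.66), whereas the other probe was well above background only with periostin siRNA. NLRC5, the activator of MHC class I genes, had 53.4 and 109 (1.03) on one probe and 51.0 and 60.1 (0.23) on the other.

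Interferon acts on target genes partly through the interferon-stimulated response element (ISRE), so promoters were searched for a simple form of it, GAAA, any 2 bases, then GAAA, on both strands. The windows were those of RefSeq on GRCh38.p14, from 250 bases before to 50 bases after each transcription start, and 42 of the 48 members had at least 1 window, 51 in all. A match was found in 7 of the 51 windows (13.7%) and in 3.57% of all 35116 windows. Of the windows of the inducible members, 4 of 6 had a match, and of those of the constitutive 20S and 19S subunits 2 of 32 (6.25%). The 7 genes were PSMB8, PSMB10, PSME1 and PSME2 of the inducible members, the alpha subunit PSMA4, the beta subunit PSMB4 and the assembly factor PSMG4. By comparison, 17 of 24 interferon-stimulated genes with a window had a match. The sequences are printed 5′ to 3′ on the gene's strand, with the matched letters in capitals (TTTC on the printed strand is GAAA on the other).

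PSMB8 (chr6:32844032-32844061, minus strand): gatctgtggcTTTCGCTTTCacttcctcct
PSME1 (chr14:24136189-24136218, plus strand): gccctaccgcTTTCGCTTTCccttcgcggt
PSME2 (chr14:24146611-24146710, minus strand): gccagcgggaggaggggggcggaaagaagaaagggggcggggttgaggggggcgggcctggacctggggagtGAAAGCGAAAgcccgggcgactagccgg
PSMB10 (chr16:67936851-67936950, minus strand): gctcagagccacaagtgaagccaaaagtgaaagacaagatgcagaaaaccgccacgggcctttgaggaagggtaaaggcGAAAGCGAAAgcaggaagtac
PSMG4 (chr6:3258847-3258946, plus strand): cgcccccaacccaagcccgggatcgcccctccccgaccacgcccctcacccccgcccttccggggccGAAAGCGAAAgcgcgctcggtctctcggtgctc
PSMB4 (chr1:151399473-151399572, plus strand): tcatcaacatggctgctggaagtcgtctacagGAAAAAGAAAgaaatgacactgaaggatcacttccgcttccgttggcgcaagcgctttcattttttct
PSMA4 (chr15:78540155-78540184, plus strand): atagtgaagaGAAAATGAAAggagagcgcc
TAP1 (chr6:32853816-32853845, minus strand): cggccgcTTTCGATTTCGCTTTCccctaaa

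PSMB8, PSME1, PSME2, PSMB10 and PSMG4 held the same 10 matched letters, read on one strand or the other, and their log2 ratios were -0.10, 0.10, 0.18, -0.09 and -0.21. All of these but PSMG4 lay within their propagated spot error of 0, and PSMG4 lay just past it. The match began 28 bases before the start in PSME2, 21 in PSMB10, 33 in PSMG4 and 68 in PSMB4, whereas it spanned the start in PSMB8. PSMA4, with its match 240 bases before the start, was among the lowest members (-0.58), and PSMB4 was at -0.36. The 7 members with a match had a median log2 ratio of -0.10, and the 33 measured members with a window but no match had -0.24. Of the 7, 4 were inducible members, and the others were PSMA4, PSMB4 and PSMG4 at -0.58, -0.36 and -0.21. The motif and the inducible group are thus not separate in these medians. TAP1 held a pair of overlapping matches, drawn as 1 run of capitals. A match is a description of the letters and not a bound site.

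PSMB9 had no match in its window, although its start lies 488 bases from that of TAP1, which is transcribed in the opposite direction, and the TAP1 matches lie between both starts. The 100 bases before the start of PSMB9 are printed to show the side of this shared region that the TAP1 stretch does not cover, in lower case throughout because they hold no match.

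PSMB9 (chr6:32854092-32854191, plus strand): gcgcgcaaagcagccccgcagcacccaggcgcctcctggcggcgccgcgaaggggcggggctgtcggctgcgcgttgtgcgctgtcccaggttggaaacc

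Other short motifs were searched in the same windows. The letters TTCNNNGAA, a simple form of the interferon-gamma activated site, were in 8 of the 51 windows (15.7%) and in 7.66% of all windows, and PSMB8 was the only inducible member with them. The 7 measured members with these letters, PSMA2 among them, had a median log2 ratio of -0.13 and the 33 without them -0.24. TGACNNNGC, the core of the antioxidant response element to which NFE2L1 and its relative NFE2L2 bind, was in 15 of the 51 windows (29.4%) and in 13.4% of all windows, and 3 of the 5 inducible members had it (PSMB9, PSME1 and PSME2). The 15 members with it had a median log2 ratio of -0.03 and the 25 without it -0.25. CCAAT, bound by NF-Y, was in 20 of the 51 windows (39.2%) and in 34.6% of all windows. The 19 measured members with CCAAT had a median of -0.28 and the 21 without it -0.10. Of the 26 constitutive 20S and 19S subunits with a window, 15 had CCAAT and 7 had TGACNNNGC. Of the 5 inducible members, 1 had CCAAT and 3 had TGACNNNGC. Neither motif is thus separate from the inducible group in these medians. None of the 59 matches of these 4 motifs in the members' windows overlapped a match of another motif. The log2 ratios of the members with CCAAT ran from -0.75 for PSMA2 to 0.16 for PSMB9, with PSMB3 at 0.06. PSMD12 (-0.49) and PSMB4 (-0.36) had a window without CCAAT. Whether CCAAT has a part in the log2 ratios was not tested. The members with CCAAT included PSMA2 and PSMA3, the lowest of all, whose 100 bases before the start are printed with CCAAT, or ATTGG on the printed strand, in capitals.

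PSMA2 (chr7:42932175-42932274, minus strand): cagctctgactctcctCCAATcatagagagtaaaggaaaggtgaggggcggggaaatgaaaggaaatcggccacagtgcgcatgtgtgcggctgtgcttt
PSMA3 (chr14:58244743-58244842, plus strand): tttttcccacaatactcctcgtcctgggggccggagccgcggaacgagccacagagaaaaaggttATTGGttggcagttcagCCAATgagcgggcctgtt

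The 19S cap was also below its control level for most genes, with 15 of 17 subunits below 0 and a median log2 ratio of -0.24. The ATPases, which form the ring that unfolds the substrate, had a median of -0.23 with 6 of 6 below 0, from -0.39 for PSMC2 (6466 and 4949) to -0.03 for PSMC4 (2650 and 2600). Grouped by place, which was done after the values had been seen, the 8 lid subunits had a median of -0.39 and all lay below 0, and the 9 base subunits had a median of -0.20 with 7 below 0. PSMD14, the lid enzyme that removes the ubiquitin chain, had 6494 and 4690 (-0.47 ± 0.20), and its other probe gave -0.44. PSMD12 (1730 and 1232) and PSMD11 (1560 and 1119), lid scaffold subunits, had -0.49 and -0.48. These lid genes were all lower by more than their spot error.

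Replicate spots gave the tightest values for lid subunits. PSMD7, the partner of PSMD14, was measured on 10 spots and had 9166 and 6862 (log2 ratio -0.42 ± 0.03, SD over spots). PSMD6 was measured on 8 spots and had 4117 and 3459 (-0.25 ± 0.05). Both genes were lower by several times the spread between their spots, and their log2 ratios lay apart by more than that spread. The remaining lid genes were PSMD13 at -0.37, PSMD3 at -0.18 and PSMD8 at -0.12. In the base, the ubiquitin receptor PSMD4 was at 0.09, and the large scaffold subunits PSMD2 and PSMD1 were at -0.20 and 0.03. PSMD1 was not settled in direction, since its dimmer probe gave -0.16.

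The assembly factors and regulators held the members with the highest log2 ratios. PSMD5, a chaperone of the 19S base, had 761 and 929 (0.29 ± 0.20), but its dimmer probe had 124 and 119 (-0.06). The other base chaperones, PSMD9 and PSMD10, were at -0.29 and -0.24, although a dim second probe of PSMD9 gave 0.48. PSMF1, the proteasome inhibitor PI31, had 996 and 1188 (0.25 ± 0.20), and its other 3 probes were all above 0, at 0.09, 0.19 and 0.35. It was thus the member with the most probes, all of which were on the same side of 0. Of the 20S assembly chaperones, PSMG1 was at -0.40 (6745 and 5116), PSMG4 at -0.21, PSMG3 at 0.02 and PSMG2 at 0.20, so that PSMG1 and PSMG2, which act as a heterodimer, lay on opposite sides of 0. The activators PSME3 and PSME4, the latter also known as PA200, were at -0.11 and -0.08.

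A few members had probes that differed in sign. Besides PSMD1, PSMD5 and PSMD9, these were PSMA1, whose probe for a transcript variant had 57.1 and 92.0 (log2 ratio 0.69) against -0.26 for the bright probe, PSME4, whose second probe had 341 and 401 (0.23), and PSMG4. The second PSMG4 probe was well above background only with periostin siRNA, at 14.1. The brightest probe stands for the gene here, so a dissenting probe is the dimmer one by that choice. RefSeq lists 52 processed copies of 21 members elsewhere in the genome, and whether a probe also binds such a copy was not tested. For PSMB11, both probes were at background on both arrays.

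Genes that work with the proteasome but are not named PSM were less uniform. Of 21 accessory genes, 19 were matched and measured, 12 of them below 0, with a median of -0.17. UCHL5, a deubiquitinase of the cap, was the lowest with 539 and 347 (log2 ratio -0.64 ± 0.04, SD over 10 spots), and VCP, the segregase that extracts ubiquitinated proteins, was at -0.50 (45276 and 32059). POMP, the chaperone of 20S maturation, had 297 and 213 (-0.48 ± 0.20), and the cap subunits ADRM1 and SEM1 were at -0.29 and -0.28. NFE2L1, the transcription factor that raises proteasome genes when the proteasome is impaired, was on the other side of 0 with 7010 and 9238 (0.40 ± 0.20), as was PAAF1, a negative regulator of 26S assembly, with 3603 and 5404.

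The place of the members relative to all genes was kept under the 10 other ways of processing that were tried, while the place of zero was not. Scaling on the median, no scaling, the 75th percentile over spots above background and the deposited table shift all log2 ratios by a constant. Those settings could not change a difference of medians, so at most the remaining ones bear on the differences that follow. The median of the members minus the median of all genes was -0.26, and lay between -0.26 and -0.21 under the alternatives. The median of the 5 inducible members minus that of the constitutive subunits was 0.36, and lay between 0.30 and 0.37. The filter on dim probes and the keeping of outlier-flagged spots left this difference unchanged. Its range comes from normexp, quantile normalization, loess and the mean over probes. Of the 46 measured members, 35 kept their sign in every setting. The 11 that did not were PSMA1, PSMA6, PSMB3, PSMC4, PSMD1, PSMD4, PSMD9, PSME1, PSME4, PSMG3 and PSMG4, so no direction is settled for them. Scaling on the median of each array, in place of its 75th percentile, put the median of all genes at -0.07 and that of the 5 inducible members at -0.03.

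**Figure D4:**
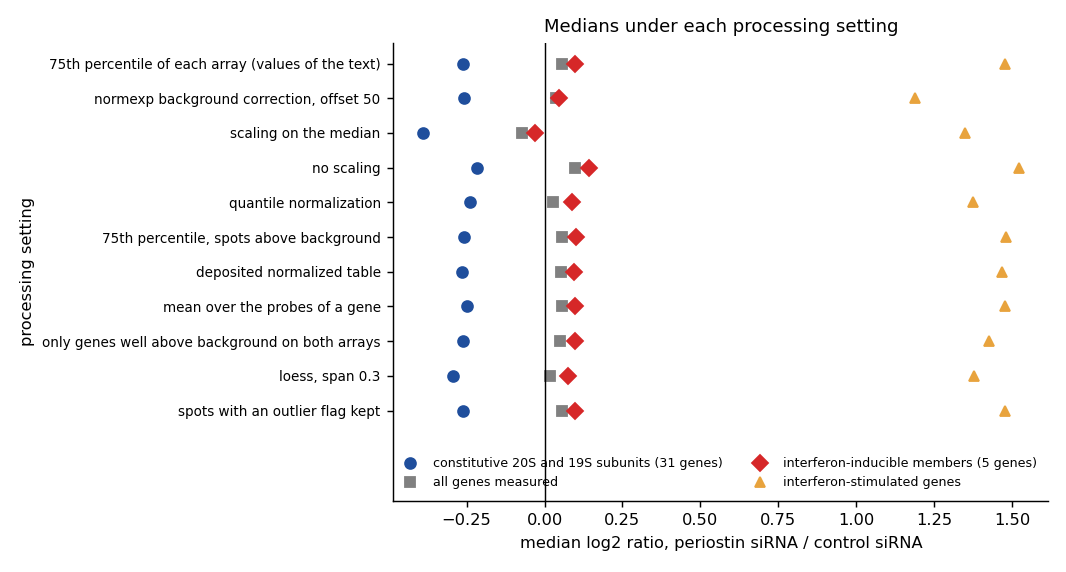
Median log2 ratio, periostin siRNA over control (x axis), under each processing setting (y axis) for 31 constitutive 20S and 19S subunits (blue circles), all genes measured (grey squares), 5 interferon-inducible members (red diamonds) and interferon-stimulated genes (orange triangles). In every setting the constitutive subunits lie below all genes, the inducible members lie within 0.1 of all genes, and the interferon-stimulated genes lie above 1. A setting that shifts all log2 ratios by a constant cannot change the distances between the medians. The interferon-stimulated list was chosen after its values were seen.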

How the data were processed

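The scanner output deposited for both arrays holds intensity values from which Agilent Feature Extraction had removed background and spatial trend, with no scaling across arrays. The version is 11.5.1.1 per the file headers and 12.0.3.1 in the submitters' processing notes. A deposited table of normalized intensity was checked and equalled the scanner log2 ratios up to a constant for 49697 features printed once; its normalization is not given in the sources used here. Here each processed signal was divided by the 75th percentile of its array (372 and 383, over 58717 non-control spots) and taken to log2. Outlier-flagged spots (586) were left out, spots of a probe were averaged, and the brightest probe stood for a gene. A gene counted as measured if this probe exceeded background on at least 1 array, and its ratio is a bound if on 1 alone. Of all spots, 58.0% and 58.9% were well above background, none was saturated, and 65.1% were named. Over 667 probes printed 10 times, the pooled SD of the log2 ratio between spots was 0.12, and it was 0.06 over the 282 of them within the members' range of signal. The number of arrays limits the precision. Python 3.11.15, numpy 2.4.6, pandas 2.3.3, statsmodels 0.14.6, R 4.3.3 and limma 3.58.1 were used, and scripts were tested on simulated data. The array was designed on hg19, and RefSeq GRCh38.p14 served for names and promoter sequences alone.

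The members and lists were chosen with earlier results of these data known, and the interferon-stimulated list and the lid and base groups after their values were seen. Values are given for the interferon-inducible members, their counterparts, members past 1.5-fold, below background or with probes of different sign, and TAP1, TAP2, NFE2L1, POMP and POSTN; others named were chosen after their values were seen. Some genes of the rule and of the lists are not reported here. The medians of the fibroblast, leukocyte, epithelial and endothelial marker lists were -0.10 (8 genes), 0.34 (5 of 8), 0.66 (3 of 4) and 0.03 (2 of 3). The alternatives were normexp with an offset of 50, 3 other scalings and none, loess with a span of 0.3, the deposited table, the mean over probes, a filter on dim probes, outlier-flagged spots kept, and thresholds of 1.5-fold and 3-fold.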

Additional observations from a re-analysis of the deposited data

How the results depend on the processing

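Under the alternatives, the group medians moved by less than the median spot error of their genes, and the pair differences by less than their combined spot error, with 1 exception. The median log2 ratio of the 19S assembly factors was -0.24 and became 0.10 when all probes of a gene were averaged, since PSMD9 then took in its dim probe. Averaging the probes also turned the median of the 20S assembly factors from -0.09 to 0.11, and scaling on the median turned that of the interferon-inducible members from 0.10 to -0.03. PSME2 minus PSME3, at 0.286, passed its combined spot error of 0.289 with quantile normalization (0.35) and normexp (0.290). Settings that shift all log2 ratios by a constant could not change the pair differences. With the limit at 1.5-fold in place of 2-fold, 2 members were lower in place of 0, and this number was 7 with scaling on the median, 3 with quantile normalization or loess and 1 without scaling. Scaling on the median lowered the median of all genes from 0.06 to -0.07, and 40 of the 46 members were then below 0; their number was 32 with the mean over probes. The loess fit and the keeping of outlier-flagged spots were chosen after seeing the data and were not planned. No paired analysis was possible because there were only 2 arrays, 1 per condition, which also left no replicate to leave out. Signal over background did not limit the members other than PSMA8 and PSMB11. Among the further probes of the measured members, only that of PSMG4 was not well above background on both arrays.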
